A study of Homo sapiens with 16 samples.

Results

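ATAC-seq libraries of fibroblasts under an activated Raf kinase alone were compared with libraries under low oxygen alone, so that each stress was set against the other and not against untreated cells. The comparison rests on 8 of the 16 libraries of the series, 4 with Raf active in normoxia (Raf alone) and 4 with Raf inactive in hypoxia (hypoxia alone), taken by their titles. The 4 libraries with neither stress and the 4 with both are given beside them as levels outside the comparison. All 16 libraries are from IMR90, a line of human lung fibroblasts. Per the labels, the cells were infected with a retrovirus for ΔB-RAF:ER, a truncated B-RAF joined to the estrogen receptor, and 4-hydroxy-tamoxifen, or 4-OHT, the ligand that switches such a fusion on, was added. Both are given in the same words for all groups, and how the Raf-inactivated cells were handled, the length of either stress and a dose are not given in the sources used here. Hypoxia was an atmosphere of 0.5% O2. Nothing in the labels says that the 4 replicates of a group were separate cultures, so a p-value here speaks of the spread among libraries, and that spread may be technical.

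In ATAC-seq the transposase Tn5 cuts into DNA that is not wrapped tightly in nucleosomes, and a peak is a place where such cuts pile up. Sustained RAF, MEK and ERK signalling drives fibroblasts into oncogene-induced senescence, a lasting arrest with a secretory program (the SASP) and a rebuilt nuclear periphery, where lamin B1 is lost and gene-poor heterochromatin detaches from the lamina. Hypoxia acts mainly through HIF, whose alpha subunits are hydroxylated by EGLN enzymes and destroyed through VHL when oxygen is present. Low oxygen also slows the oxygen-dependent enzymes that demethylate histones.

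The authors deposited 1 peak list per library, and lines with the same interval on chromosomes 1 to 22 and X were counted as 1 distinct peak. Depth is not stated in the lists, and was read from the background pileup implied by the authors' fold and p of each peak. That background was 6.09 to 7.10 with Raf alone and 4.61 to 5.02 with hypoxia alone, and 3.01 to 8.34 over the 16 libraries. The Raf lists are therefore the deeper ones, and a peak that is missing from a list was not called at that depth, which does not show closed chromatin. Lists thinned to the lowest background of the 8 libraries are called matched in depth below. Thinning kept or dropped whole peaks by a -log10 p of at least 5 and left their intervals as deposited. Lengths, covered bases and overlaps at matched depth are therefore those of intervals called at full depth. Of the 6 fibroblast markers with an annotated start, 5 had a peak over it in all 8 libraries (PDGFRB, VIM, S100A4, PRRX1 and TWIST2). Starts of markers of other cell types were also called. All 8 libraries had a peak at 4 of 8 epithelial starts (CLDN3, CLDN4, SFTPB and MUC1), 5 of 10 neuronal ones (RBFOX3, TUBB3, SYN1, SYP and GAD1), 3 of 9 blood ones (CD8A, CD14 and CD68) and 2 of 10 endothelial ones (KDR and FLT1). None of the 8 had one at 2, 4, 5 and 3 of these starts.

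The regions called under one stress and not under the other mostly followed Raf status in the remaining libraries. Over merged regions called in at least 2 of the 16 libraries (299052), 44298 had a peak in 4 of 4 Raf-alone and 0 of 4 hypoxia-alone libraries (14.8%). Another 32179 had the reverse pattern (10.8%), and 90348 were called in all 8. Which set was larger turned with the processing: with equal list lengths 34064 were Raf-only and 35064 hypoxia-only, and among peaks enriched 5-fold or more 23684 and 26256. The libraries that the choice did not use place these regions. The Raf-only regions were called in 72.7% ± 1.9 (SD, n = 4) of cases per library with both stresses and in 9.75% ± 0.35 with neither. The hypoxia-only regions went the other way, with 18.3% ± 1.1 called under both stresses and 82.7% ± 0.74 with neither. No library of one of these outer groups overlapped the other in either set (exact permutation test, two-sided, p = 0.0286 for each, adjusted 0.0286 over 2 tests), the smallest p that 4 against 4 allows. The background of the lists moves along with the first contrast, at 6.53 to 8.34 under both stresses and 3.01 to 3.50 with neither, and its part in that result was not tested.

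**Figure D1:**
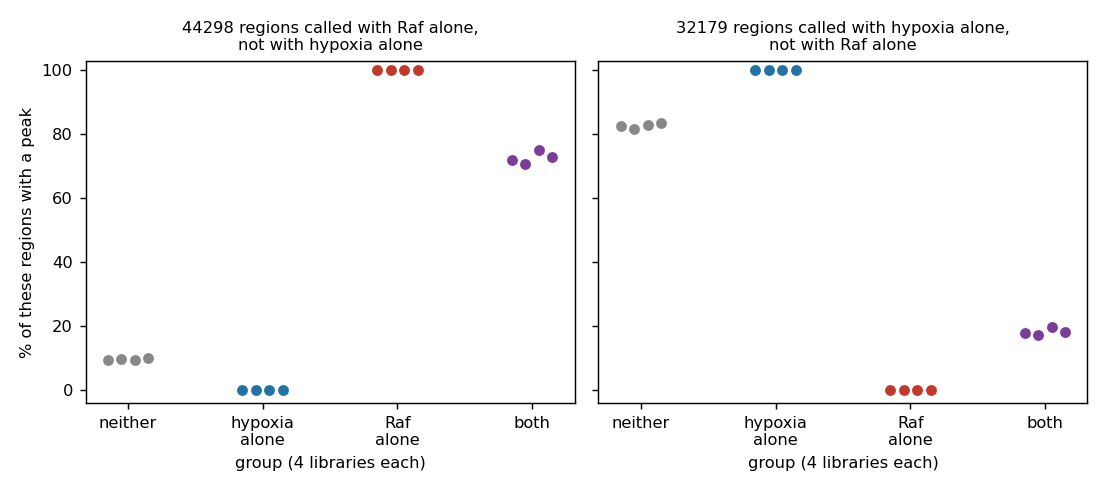
Share of the regions called under only one of the stresses (y axis, percent with a peak) in each library, by group on the x axis, 1 point per library. In the left panel the libraries with both stresses lie between 70.7 and 75.3% and the untreated ones between 9.38 and 10.2%, and in the right panel the order is reversed; the values of 0 and 100% follow from how the regions were chosen.

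Few of the regions belonged to one stress in the strict sense. Of the Raf-only regions 20864 (47.1%) were called in all 8 Raf-active libraries, whatever the oxygen, and in none of the Raf-inactive ones, whereas 6567 (14.8%) were called under Raf alone and in no library of any other group. Of the hypoxia-only regions 16177 (50.3%) were shared with the 4 untreated libraries and absent with Raf active, and 1813 (5.63%) were called in hypoxia alone and nowhere else. Oxygen by itself sorted few regions: 235 were called in all 8 hypoxic and no normoxic libraries, and 110 in all 8 normoxic and no hypoxic ones. The strict Raf-alone regions had a median length of 343 bases and a median of 3.71 for the authors' fold enrichment, against 477 bases and 5.23 for the regions shared by both Raf-active groups. The strict hypoxia-alone regions were as short, at 336 bases and a median authors' fold of 4.49, against 522 bases and 7.51 for the regions shared by both Raf-inactive groups. Both strict sets thus lie nearer to the calling threshold than the shared ones, and the part of that in their number was not tested.

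By the mean rank of the authors' p within the 4 lists, the leading Raf-only region was on chromosome 17 (chr17:47757051-47758023, hg38), 10929 bases outside TBX21, the gene of the T-bet transcription factor. The authors' fold there was 20.6, 21.3, 21.7 and 21.3 in the 4 libraries. The next were a region 5319 bases from ARID3B on chromosome 15 (chr15:74535230-74535901), one inside CLCN7, a lysosomal chloride transporter gene (chr16:1470452-1471458), and one 6081 bases from OR1K1 (chr9:122807154-122807882). All 4 were called in 4 of 4 libraries with both stresses, and the one in CLCN7 also in 4 of 4 untreated libraries, so that it was missing from hypoxia alone. The leading hypoxia-only regions were in a gene desert on chromosome 5 (chr5:117803356-117804023), 323988 bases from the nearest protein-coding model, and inside CTNNA2 (chr2:80001492-80002391), TRPM3 (chr9:70953779-70954708) and CYP2U1 (chr4:107950815-107952161). CTNNA2 encodes a neuronal catenin and TRPM3 a cation channel. The authors' fold in TRPM3 was 25.9 to 27.6. These 4 regions were called in all untreated libraries and in all libraries with both stresses, and so were missing only with Raf alone, a pattern held by 8.02% of the hypoxia-only regions.

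Gene starts, 1 per gene, differed far less often than regions. The start used need not be the outermost or main start of its gene, so it does not speak for other starts. A peak within 500 bases of the start was called in 4 of 4 Raf-alone and 0 of 4 hypoxia-alone libraries for 251 of 15812 protein-coding genes (1.59%), and in the reverse pattern for 185 (1.17%), while 10531 starts were called in all 8. The order of these counts turned too, to 211 Raf-only and 251 hypoxia-only starts with equal list lengths and 211 and 269 among peaks enriched 5-fold or more. Ranked as above, the Raf-only starts were led by INMT, which encodes an indolethylamine methyltransferase, and the models LOC124902898 and LOC124902508. SERPINB7, an epidermal serine protease inhibitor, GAPDH at the start used here, and SLC51B, a subunit of a bile acid transporter, followed. The hypoxia-only starts were led by ARMC5, OR2F2, an olfactory receptor, PRIM2, a DNA primase subunit, LGALS8, which encodes galectin-8, and the models LOC124909474 and LOC124902886. As with the regions, 164 of the Raf-only starts (65.3%) were called in all 4 libraries with both stresses and 11 (4.38%) in all 4 untreated ones. Of the hypoxia-only starts 43 (23.2%) and 129 (69.7%) were so called. Members of the gene lists used below that had a Raf-only start were HK1, the first enzyme of glycolysis, PLAU, the urokinase of the SASP, BMP4, CCL20, BATF2, BST2, TIE1 and SLC17A7, besides GAPDH. Those with a hypoxia-only start were CNTN5, FOXP2 and MEOX2.

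The upstream sequences of a few of these starts are shown because the starts that parted the stresses held fewer CpG dinucleotides in the median than those called in all 8 libraries. Each run is the 250 bases before the annotated start in RefSeq (GRCh38.p14), 5′ to 3′ on the strand of the gene, with every CG in capitals. The first 5 are Raf-only starts: INMT (chr7:30751885-30752134, plus strand), SERPINB7 (chr18:63752807-63753056, plus), TRIM63, a ubiquitin ligase gene known from muscle (chr1:26067631-26067880, minus), the chemokine gene CCL20 (chr2:227813592-227813841, plus) and PAEP, which encodes glycodelin (chr9:135561506-135561755, plus).
INMT: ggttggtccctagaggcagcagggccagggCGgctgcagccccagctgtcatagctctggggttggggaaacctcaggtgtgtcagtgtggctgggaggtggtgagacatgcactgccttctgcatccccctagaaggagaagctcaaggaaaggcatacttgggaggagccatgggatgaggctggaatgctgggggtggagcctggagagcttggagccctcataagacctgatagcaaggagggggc
SERPINB7: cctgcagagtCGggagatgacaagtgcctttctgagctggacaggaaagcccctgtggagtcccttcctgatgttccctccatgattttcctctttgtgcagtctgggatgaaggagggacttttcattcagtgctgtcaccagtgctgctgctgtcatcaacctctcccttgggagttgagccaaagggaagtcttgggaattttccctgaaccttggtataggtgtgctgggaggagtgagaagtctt
TRIM63: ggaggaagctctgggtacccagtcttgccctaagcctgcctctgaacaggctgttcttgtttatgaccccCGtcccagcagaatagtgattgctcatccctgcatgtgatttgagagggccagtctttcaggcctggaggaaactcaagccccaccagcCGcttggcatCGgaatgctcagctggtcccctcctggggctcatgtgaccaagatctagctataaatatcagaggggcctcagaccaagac
CCL20: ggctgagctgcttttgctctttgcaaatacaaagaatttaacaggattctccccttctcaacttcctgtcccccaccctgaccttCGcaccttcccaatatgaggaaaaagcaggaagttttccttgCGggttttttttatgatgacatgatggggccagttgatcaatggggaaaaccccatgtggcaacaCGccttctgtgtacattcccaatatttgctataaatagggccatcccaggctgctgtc
PAEP: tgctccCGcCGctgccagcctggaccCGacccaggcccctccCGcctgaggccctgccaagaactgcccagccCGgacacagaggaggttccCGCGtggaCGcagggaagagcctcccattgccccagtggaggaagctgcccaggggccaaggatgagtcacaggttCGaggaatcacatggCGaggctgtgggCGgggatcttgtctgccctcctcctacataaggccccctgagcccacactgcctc
INMT and SERPINB7 hold 1 CpG each, TRIM63 and CCL20 3 each and PAEP 11. In TRIM63 and CCL20 the letters TATAAA begin at position -31 and -29 from the start, and in PAEP the AP-1 letters TGACTCA lie on the opposite strand at -95. The starts of SERPINB7, TRIM63 and PAEP were called in 4 of 4 libraries with both stresses and 0 of 4 untreated ones. CCL20 was called in none of these 8, and its authors' fold of 1.74 to 2.23 in the Raf-alone libraries is low, so a missing call does not show a closed start.

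The next 4 are hypoxia-only starts: OR2F2 (chr7:143934983-143935232, plus strand), LGALS8 (chr1:236517964-236518213, plus), ADAMTS19, a secreted metalloproteinase gene (chr5:129460048-129460297, plus) and FOXP2, a forkhead transcription factor gene (chr7:114414565-114414814, plus). CDKN1A, the gene of the cell cycle inhibitor p21 (chr6:36678464-36678713, plus), stands beside them as a start called in all 16 libraries. The runs of FOXP2 and CDKN1A lie inside the annotated genes, chr7:114086327-114693765 and chr6:36676463-36687332, before an internal start.
OR2F2: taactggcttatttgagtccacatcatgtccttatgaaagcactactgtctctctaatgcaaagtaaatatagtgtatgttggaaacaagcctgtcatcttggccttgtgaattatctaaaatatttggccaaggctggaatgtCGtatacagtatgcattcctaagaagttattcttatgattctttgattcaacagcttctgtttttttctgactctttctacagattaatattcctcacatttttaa
LGALS8: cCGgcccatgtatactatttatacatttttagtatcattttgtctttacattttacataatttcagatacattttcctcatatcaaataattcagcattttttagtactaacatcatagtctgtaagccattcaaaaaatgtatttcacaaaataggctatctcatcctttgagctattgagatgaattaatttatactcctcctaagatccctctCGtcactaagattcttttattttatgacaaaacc
ADAMTS19: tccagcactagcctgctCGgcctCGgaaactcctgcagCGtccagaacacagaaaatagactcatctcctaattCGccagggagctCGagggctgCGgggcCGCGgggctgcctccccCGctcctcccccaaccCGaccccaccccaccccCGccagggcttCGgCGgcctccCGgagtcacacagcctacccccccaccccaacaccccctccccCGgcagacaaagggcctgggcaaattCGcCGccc
FOXP2: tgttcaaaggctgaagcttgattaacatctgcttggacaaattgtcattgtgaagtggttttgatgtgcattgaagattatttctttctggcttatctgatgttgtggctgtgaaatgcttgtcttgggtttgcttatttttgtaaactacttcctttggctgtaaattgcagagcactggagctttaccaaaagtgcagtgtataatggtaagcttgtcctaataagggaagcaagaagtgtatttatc
CDKN1A: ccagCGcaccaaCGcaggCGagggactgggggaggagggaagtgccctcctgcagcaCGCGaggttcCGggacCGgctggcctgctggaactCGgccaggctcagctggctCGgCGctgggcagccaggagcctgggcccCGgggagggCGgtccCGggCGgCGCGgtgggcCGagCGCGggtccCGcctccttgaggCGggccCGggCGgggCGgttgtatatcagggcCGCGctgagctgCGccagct
OR2F2 holds 1 CpG, LGALS8 2, FOXP2 0 and ADAMTS19 17, against 27 in CDKN1A. FOXP2 and OR2F2 were called in 4 of 4 untreated libraries and 0 of 4 with both stresses. ADAMTS19 was called in 4 of 4 and 3 of 4. Over the 300 bases from 250 before to 50 after the start, the median number of CpG was 6 for the Raf-only starts, 14 for the hypoxia-only starts, 27 for starts called in all 8 libraries, 4 for starts called in none of them and 22 for all 15812. The AP-1 letters TGACTCA, on either strand, were in 5.98% of the Raf-only, 3.24% of the hypoxia-only and 3.67% of all starts. The core letters that HIF binds, ACGTG or GCGTG on either strand, were in 33.5%, 41.6% and 55.9%, and TATAAA on either strand in 13.5%, 14.6% and 9.64%. A match of letters describes the sequence and does not show a bound site.

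Across gene loci the difference between the stresses was broad. A locus was the gene body with 10 kb on each side, its value was the number of distinct peaks scaled so that every library had the same total over loci, and differences are in log2 of that number plus 1, Raf alone minus hypoxia alone. Of 15276 loci tested, 10081 differed (66.0%), 5885 higher with Raf alone (38.5%) and 4196 higher with hypoxia alone (27.5%), by limma with Benjamini-Hochberg adjustment at 0.05. The groups did not overlap at 9116 loci (59.7%). With lists matched in depth, 5780 were higher with Raf alone and 3867 with hypoxia alone. The split depends on the scaling: without it 9106 and 2375 loci were called, 79.3% of them higher with Raf in place of 58.4%, and the median difference over all loci was 0.37 in place of 0.10. Counts of lists are therefore given in both ways, with further settings where they change the balance. List counts without scaling stand beside these 9106 and 2375 of all 15276 loci. The filter was a mean of 3 peaks over all 16 libraries, so a locus low in some groups can pass through the groups where it is high. Neighbouring loci share peaks, so the members of lists are not independent, and a locus with several starts or a neighbour within 10 kb holds the peaks of both.

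The largest difference toward Raf was at TRIM63, which had 6.24, 7.06, 7.59 and 8.85 scaled peaks with Raf alone and 0 in all 4 libraries with hypoxia alone. The log2 difference was 3.07 ± 0.08 (SE; limma adjusted p 9.75e-14), a value that depends on the added 1 since one group is at 0. All Raf-inactive libraries were at 0 there and add no spread to the estimate shared by the 4 groups, which lowers the SE and p. DNAJB8, a co-chaperone gene, followed at 2.81, then ATP4B, a subunit of the gastric proton pump, the sulfotransferase gene SULT1A2 at 2.77, the isomerase gene IDI2 at 2.68 and MUC6, a gastric mucin, at 2.67. MUC6 had 3.79 to 8.82 scaled peaks with Raf alone and 0 to 1.12 with hypoxia alone. At 5 of these 6 loci all hypoxia-alone libraries were at 0, and MUC6 had a peak in 1 of them. The same loci held 3.96 to 7.68 scaled peaks on average with both stresses and 0 to 1.89 with neither. All 6 passed the filter only through the Raf-active groups, where they are high.

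The largest differences toward hypoxia were at loci whose mean was lowest with Raf alone of all 4 groups. NKAIN2, a gene over 1 Mb long that encodes a partner of the sodium pump, had 24.4, 22.4, 22.8 and 24.6 scaled peaks with hypoxia alone and 0 to 1.77 with Raf alone. Its log2 difference was -3.78 ± 0.20 (SE; limma adjusted p 9.95e-11). HHLA2, an immune ligand of the B7 family, came next at -3.76, then ADAMTS19 at -3.74, THEMIS, a T-cell signalling gene, at -3.62, P2RY12, an ADP receptor, at -3.53 and LMO3, a LIM-domain gene, at -3.43. HHLA2 had 10.1 to 13.7 scaled peaks with hypoxia alone and 0 in all 4 Raf-alone libraries, as did ADAMTS19, P2RY12 and LMO3. With both stresses these 6 loci averaged 1.16 to 5.36 scaled peaks. With neither stress all 6 averaged more than that, the lowest being ADAMTS19 at 8.38. These 6 passed the filter mainly through the Raf-inactive groups, where they are high.

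**Figure D2:**
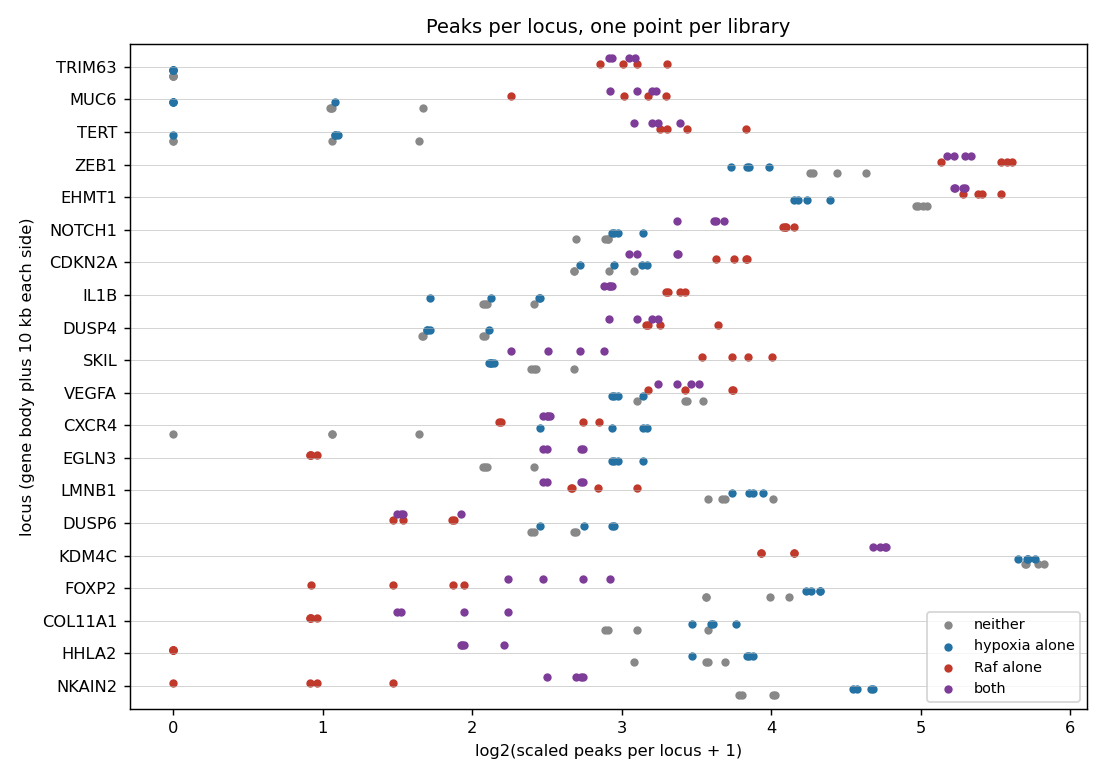
Scaled peaks per locus as log2 of the number plus 1 (x axis) for 20 loci (y axis), 1 point per library and 4 libraries per group. TRIM63, MUC6 and TERT are near 0 without active Raf, NKAIN2 and HHLA2 are near 0 with Raf alone, and EGLN3 is lowest with Raf alone and highest with hypoxia alone.

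Genes that ERK signalling switches on and that feed back on it were called in both directions. Of 35 tested, 13 were higher with Raf alone (37.1% beside 38.5% of all loci) and 5 with hypoxia alone (14.3% beside 27.5%), or 24 and 1 without scaling and 9 and 7 of 22 among peaks enriched 5-fold or more. Their median was 0.07 beside 0.10 for all loci. DUSP4, a nuclear phosphatase of ERK, had 8.02, 11.5, 8.54 and 7.96 scaled peaks with Raf alone and 2.24 to 3.33 with hypoxia alone, a difference of 1.50 ± 0.14 (SE; limma adjusted p 5.75e-08). SPRY2, an inhibitor of receptor signalling, was higher by 0.80 and EGR1, an early response transcription factor gene, by 0.50. DUSP6, the cytoplasmic ERK phosphatase, was the reverse, with 1.77 to 2.67 scaled peaks under Raf alone and 4.48 to 6.71 under hypoxia alone. Its difference of -1.08 ± 0.13 (SE; limma adjusted p 2.21e-06) turned to 0.39 when the kb covered by peaks replaced their number. Of 16 AP-1 genes 4 were higher with Raf alone, MAFF at 0.58, JDP2 at 0.50, MAFK and JUND, and 1 with hypoxia alone, ATF2 (13 and 0 without scaling, 9 and 1 of 17 at matched depth). FOSL1, the AP-1 gene most tied to RAS and RAF signalling, was at -0.06 and did not pass the test (limma adjusted p 0.663). It was called higher with Raf alone by kb covered, at 0.17, and in loci widened to 50 kb, at 0.25.

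Of the secretory genes, the share called toward Raf alone was near that of all loci. The share called toward hypoxia alone was smaller than that of all loci, but not under every setting. Of 45 tested, 16 were higher with Raf alone (35.6% beside 38.5% of all loci) and 4 with hypoxia alone (8.89% beside 27.5%), or 28 and 3 without scaling. Their median was 0.11 beside 0.10 for all loci. In loci widened to 50 kb 15 and 16 of 50 were called, with a median of -0.02, and among peaks enriched 5-fold or more 8 and 7 of 28. IL1B, an inflammatory cytokine, had 8.91, 8.82, 9.49 and 9.73 scaled peaks with Raf alone and 4.44, 4.47, 2.28 and 3.36 with hypoxia alone, a difference of 1.17 ± 0.13 (SE; limma adjusted p 5.9e-07). BMP2, a growth factor, was higher by 1.16, the plasminogen activator inhibitor gene SERPINB2 by 0.62, CXCL8 by 0.41 and IL1A by 0.33. IL6 was at 0.23 and did not pass the test (limma adjusted p 0.0918), with 3.57 to 4.42 scaled peaks against 2.28 to 4.48. MMP14, CXCR2, CCL2 and ICAM1 were the 4 higher with hypoxia alone, MMP14, a membrane collagenase, with 10.3 to 13.4 scaled peaks against 5.29 to 5.69 with Raf alone. IL1A turned to -0.51 among peaks enriched 5-fold or more and CXCL8 to -0.27 in loci widened to 50 kb, where the BMP2 call also ended (0.28). IL6 was called at 0.35 without hypoxia-alone replicate 4.

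The regulators of the SASP split, with 5 of 18 higher with Raf alone (27.8% beside 38.5% of all loci) and 6 with hypoxia alone (33.3% beside 27.5%), or 11 and 2 without scaling. Of 17 tested at matched depth, and of 17 with equal list lengths, 5 and 2 were called. NOTCH1, the receptor that times the secretory program, had 15.9 to 16.8 scaled peaks with Raf alone against 6.66 to 7.83, a difference of 1.11 ± 0.08 (SE; limma adjusted p 5.03e-09) that was -0.06 among peaks enriched 5-fold or more. MAP3K7, a kinase upstream of NF-kB, was higher with hypoxia alone, at -0.89, and so was NFKB1. CXCR4, a chemokine receptor gene, had 3.53 to 6.19 scaled peaks with Raf alone and 4.47 to 7.99 with hypoxia alone, at -0.44 (limma adjusted p 0.146). Both ranges overlap, and the locus averaged 1.08 ± 0.87 (SD, n = 4) scaled peaks with neither stress. CXCR4 was called toward hypoxia alone in loci widened to 50 kb, at -0.62, and was at 0.27, not called, by kb covered.

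Genes of arrest and of the cell cycle were called in both directions, with a balance that moved with the processing. Of 37 arrest and senescence genes 11 were higher with Raf alone (29.7% beside 38.5% of all loci) and 13 with hypoxia alone (35.1% beside 27.5%). The counts were 20 and 8 without scaling and 4 and 14 of 23, with a median of -0.25, among peaks enriched 5-fold or more. Of 45 cell cycle genes 14 were higher with each stress (31.1%), or 24 with Raf alone and 6 with hypoxia alone without scaling and 12 and 8 of 35 among peaks enriched 5-fold or more. TERT, the catalytic subunit of telomerase, had 9.80, 13.2, 8.54 and 8.85 scaled peaks with Raf alone and 0 to 1.12 with hypoxia alone, a difference of 2.64 ± 0.31 (SE; limma adjusted p 1.35e-06). TERT averaged 0.803 with neither stress and 8.39 with both, so it passed the filter only through the Raf-active groups. CDKN2B, which encodes p15, was higher by 1.29, the p53 target TP53INP1 by 1.49 and CDKN2A, the locus of p16 and p14ARF, by 0.77 ± 0.12. CDKN2A held 11.4 to 13.3 scaled peaks with Raf alone and 5.59 to 7.99 with hypoxia alone, but its difference was -0.07 among peaks enriched 5-fold or more. CDKN1A did not pass the test, at -0.07 (limma adjusted p 0.646), and RB1, the retinoblastoma gene, was lower with Raf alone at -1.18. In the cell cycle list the replication gene POLA1 was at -2.05 and the centromere motor gene CENPE at -1.78, while the survivin gene BIRC5 was at 1.52. HMGA2, a chromatin protein of senescence foci, was at 0.06 and did not pass the test (limma adjusted p 0.524). It was at -1.28 among peaks enriched 5-fold or more.

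The direction in which called HIF targets split turned with the processing, which also moved the counts of all loci. Of 67 HIF targets 13 were higher with Raf alone (19.4% beside 38.5% of all loci) and 21 with hypoxia alone (31.3% beside 27.5%). The split was 30 and 9 without scaling, beside 9106 and 2375 of all 15276 loci. With equal list lengths it was 19 and 16 of 65, beside 5808 and 3739 of 14383. In gene bodies alone it was 12 and 10 of 38, beside 3525 and 2850 of 9188. Among peaks enriched 5-fold or more it was 17 and 11 of 50, beside 3881 and 2889 of 10948. The list medians in these settings were 0.18 beside 0.37 for all loci, and 0.01 beside 0.12, 0.07 and 0.05. For the 13 and 21 given first it was -0.09 beside 0.10. EGLN3, the HIF-induced prolyl hydroxylase, had the largest difference of the list: 6.66, 7.83, 6.85 and 6.72 scaled peaks with hypoxia alone and 0.891, 0.882, 0.949 and 0.885 with Raf alone, which is 1 peak in each of those lists. The difference was -2.07 ± 0.09 (SE; limma adjusted p 1.37e-11). EGLN3 averaged 3.51 ± 0.54 (SD, n = 4) with neither stress and 5.13 ± 0.61 with both, so it was low with Raf alone and higher in hypoxia at either Raf state. The glycolytic gene PGK1 was at -0.72 and PLOD2, a collagen lysyl hydroxylase, at -0.74. The transferrin receptor gene TFRC was at 1.05. VEGFA, the angiogenic factor, was at 0.52 (8.02 to 12.4 scaled peaks against 6.66 to 7.84), although -0.03 by kb covered, and CA9 at -0.11 did not pass the test (limma adjusted p 0.35). In loci widened to 50 kb CA9 was called, at -0.28. Of 16 oxygen sensing genes 8 were higher with Raf alone (50.0%) and 1, EGLN3, with hypoxia alone (14 and 1 without scaling, 1 and 1 of 11 among peaks enriched 5-fold or more). RBX1 of the VHL ubiquitin ligase was at 1.99, VHL at 1.78 and EPAS1, which encodes HIF-2 alpha, at 0.41. RBX1 averaged 1.08 scaled peaks with neither stress and 1.12 with hypoxia alone, so it passed the filter only through the Raf-active groups.

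Among the lists of chromatin and nuclear structure, clustered histone genes stood furthest from all loci, of which 38.5% were higher with Raf alone and 27.5% with hypoxia alone. Of 46 clustered histone genes 38 were higher with hypoxia alone (82.6% beside 27.5% of all loci) and 2 with Raf alone (H2BC5 and H1-4), with a median of -0.41. The counts were 12 and 3 without scaling, 24 and 1 of 45 with equal list lengths (median -0.28) and 14 and 0 of 35 among peaks enriched 5-fold or more (median -0.07). H3C12 had 5.55 to 5.71 scaled peaks with hypoxia alone and 2.65 to 3.79 with Raf alone, a difference of -0.76 ± 0.08 (SE; limma adjusted p 3.73e-07). H2AC17, its neighbour, was at -0.68, and at 0.01 among peaks enriched 5-fold or more. Of 18 lamina and envelope genes 7 were higher with Raf alone (38.9%) and 6 with hypoxia alone (33.3%), near the shares of all loci. Without scaling the counts were 10 and 3. LMNB1, which encodes lamin B1, had 5.35 to 7.59 scaled peaks with Raf alone and 12.3 to 14.4 with hypoxia alone, a difference of -1.04 ± 0.11 (SE; limma adjusted p 5.11e-07). SYNE1, a nesprin of the nuclear envelope, was at -1.46 and TOR1A, an ATPase of its lumen, at 1.21. Of 27 enzymes and readers of H3K9 and H3K27 methylation 13 were higher with Raf alone (48.1%) and 6 with hypoxia alone (22.2%), or 17 and 2 without scaling. EHMT1, an H3K9 methyltransferase, had 41.4 ± 3.10 scaled peaks (SD, n = 4) with Raf alone and 17.9 ± 1.43 with hypoxia alone (1.16), and KDM4C, an oxygen-dependent H3K9 demethylase, had 14.2 to 16.8 against 49.2 to 53.3 (-1.67). Of 16 cathepsins and histone proteases 6 were higher with Raf alone and 4 with hypoxia alone (12 and 2 without scaling), with CTSO at -1.21 and CTSC at -0.77.

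Of the fibroblast genes, more were called toward hypoxia alone after scaling and toward Raf alone without it. All loci also moved without scaling, to 9106 higher with Raf alone and 2375 with hypoxia alone of 15276. The medians without scaling were 0.21 for matrix genes, 0.25 for identity factors and 0.17 for TGF-β genes, beside 0.37 for all loci. Other settings gave a tie or the reverse for matrix and identity genes. Of 44 matrix genes 10 were higher with Raf alone (22.7% beside 38.5% of all loci) and 16 with hypoxia alone (36.4% beside 27.5%). The counts were 24 and 9 without scaling and 14 each with equal list lengths. Of 29 identity transcription factors the counts were 6 (20.7%) and 11 (37.9%), or 14 and 5 without scaling and 9 and 8 of 27 with equal list lengths. They were 11 and 10 by kb covered and 7 and 6 of 21 among peaks enriched 5-fold or more. Of 30 TGF-β pathway genes the counts were 5 (16.7%) and 14 (46.7%), or 12 and 9 without scaling. COL11A1, a fibrillar collagen, had 10.1 to 12.6 scaled peaks with hypoxia alone and 0.882 to 0.949 with Raf alone, a difference of -2.68 ± 0.16 (SE; limma adjusted p 3.55e-10). COL1A2, a chain of collagen I, was at -1.13 and the transcription factor gene NFIA at -1.49, while TAGLN, a smooth muscle marker, was at 1.16 and at 0.13, not called, in loci widened to 50 kb. ZEB1, a repressor of epithelial genes, had 45.5, 46.8, 34.1 and 47.8 scaled peaks with Raf alone against 12.3 to 14.8 (1.61). FOXP2 was at -2.74, with 0.891 to 2.85 scaled peaks with Raf alone and 17.8 to 19.0 with hypoxia alone. SKIL, a brake on SMAD signalling, was at 1.65 and held 12.8 ± 1.87 scaled peaks with Raf alone, where both stresses together gave 5.11 ± 1.11 (SD, n = 4). SMAD9, a transducer of BMP signals, was at -1.52.

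Neural adhesion genes, many of them very long and in gene-poor regions, had the lowest median of the 22 lists. Of 25 tested 17 were higher with hypoxia alone (68.0%) and 7 with Raf alone (17 and 8 without scaling), with a median of -1.08. CNTN5 had 34.4, 32.4, 33.1 and 33.6 scaled peaks with hypoxia alone and 2.67, 3.53, 3.79 and 3.54 with Raf alone, a difference of -2.98 ± 0.09 (SE; limma adjusted p 1.85e-13). CNTN1, another contactin, was at -3.27 with no peak in any Raf-active library, and NLGN1, a neuroligin, at -2.29. CNTN1 thus passed the filter only through the Raf-inactive groups. CNTN2 and L1CAM were among the 7 higher with Raf alone. Of 31 interferon response genes 7 were higher with Raf alone (22.6% beside 38.5% of all loci) and 12 with hypoxia alone (38.7% beside 27.5%). The counts were 13 and 5 without scaling. IFI44L was at -1.01 and IFITM3 at 0.66.

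The marker lists of cell types were called in both directions, beside 38.5% of all loci higher with Raf alone and 27.5% with hypoxia alone. Their part in the results above was not tested. Of 14 fibroblast markers 2 were higher with Raf alone (14.3%) and 8 with hypoxia alone (57.1%), or 4 and 3 without scaling. Their summed scaled peaks were 126 to 139 with Raf alone and 163 to 167 with hypoxia alone. Of 15 epithelial markers 6 (40.0%) and 1 (6.67%) were called (13 and 0 without scaling), with sums of 106 to 114 against 82.7 to 91.9. Of 12 blood markers 6 (50.0%) and 2 (16.7%) were called (10 and 0 without scaling), with a lowest sum of 94.9 against 81.6 to 85.6. Of 10 neuronal markers 7 and 3 were called (7 and 3 also without scaling), with sums of 155 to 171 against 96.3 to 108, among them ELAVL3 at 1.84 and GAD1 at -2.14. Of 17 endothelial markers 7 (41.2%) and 5 (29.4%) were called (9 and 3 without scaling), near the shares of all loci. Their sums overlapped, at 182 to 195 against 193 to 194.

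Along the chromosomes, Raf-alone libraries had a larger share of their peaks near chromosome ends and hypoxia-alone libraries a larger share in gene-poor bins, though most peaks of both lay elsewhere. Of 2437 bins of 1 Mb, 843 were higher with Raf alone (34.6%) and 1335 with hypoxia alone (54.8%) by limma, 89.4% in all, and without scaling 1097 and 1009. The groups did not overlap in 85.2% of the bins. Of the 365 bins with 0 to 1 protein-coding gene, 10.1% were higher with Raf alone and 80.3% with hypoxia alone, with a median difference of -0.75. Of the bins with over 20 genes the shares were 88.1% and 7.96%, with a median of 0.54. The largest difference was on chromosome 5 at 117 to 118 Mb, the desert that holds the leading hypoxia-only region, with 46.1, 44.3, 45.5 and 44.5 scaled peaks with hypoxia alone and 0, 0.925, 0.986 and 0.917 with Raf alone. Its log2 difference was -4.81 ± 0.15 (SE; limma adjusted p 4.22e-14), and the neighbouring bin with DTWD2 was at -3.27. A bin on chromosome 13 at 63 to 64 Mb was at -3.42. Toward Raf the largest were chromosome 22 at 48 to 49 Mb, around TAFA5, at 2.65, chromosome 9 at 135 to 136 Mb, with PAEP, KCNT1 and OLFM1, at 1.56 and chromosome 12 at 125 to 126 Mb at 1.38. In the chromosome 9 bin the libraries had 164 to 182 scaled peaks with Raf alone and 55.4 to 61.9 with hypoxia alone.

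**Figure D3:**
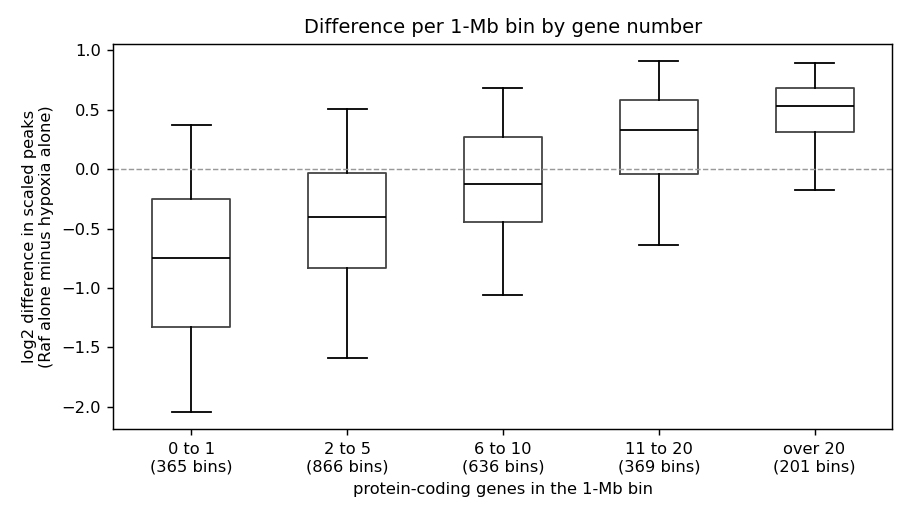
Log2 difference in scaled peaks per 1-Mb bin (y axis, Raf alone minus hypoxia alone) by the number of protein-coding genes in the bin (x axis). Boxes span the middle quartiles with the median as a line and whiskers reach the 5th and 95th percentiles; medians go from -0.75 in bins with 0 to 1 gene to 0.54 in bins with over 20.

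Per library, 608 gene-poor bins, the fifth of all bins with the fewest genes, held 3.31, 3.39, 3.56 and 3.64% of the peaks with Raf alone and 5.98, 5.96, 5.89 and 5.88% with hypoxia alone. The groups did not overlap, and the means differed by -2.45 percentage points (-2.35 at matched depth). Within 2 Mb of the chromosome ends lay 5.61, 5.49, 5.29 and 5.22% of the peaks with Raf alone and 3.53, 3.52, 3.48 and 3.53% with hypoxia alone, a difference of 1.89 points (1.70 at matched depth). Peaks within 500 bases of a gene start made up 5.72% ± 0.16 with Raf alone and 6.72% ± 0.10 with hypoxia alone (SD, n = 4), although only -0.00897 points parted the groups among peaks enriched 5-fold or more. Each of these 3 shares had p = 0.0286 in the two-sided exact permutation test, adjusted 0.0367 over the 9 library values tested. The share of peaks inside gene bodies was 55.3% ± 0.32 and 55.5% ± 0.13 (exact permutation p = 0.286, adjusted 0.321), and -1.48 points with the same number of top peaks from each list (exact permutation p = 0.0286). The share within 1 kb of either gene end was 11.5% ± 0.17 and 11.6% ± 0.18 (exact permutation p = 0.486), and turned to 0.79 points with Raf higher when 2 kb was allowed.

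Of 23 chromosomes, 22 took a different share of the peaks (95.7%; exact permutation p = 0.0286 each, adjusted 0.0299), and in all of them the groups did not overlap. Chromosome 19 held 3.53% ± 0.08 of the peaks with Raf alone and 2.30% ± 0.005 with hypoxia alone (SD, n = 4), which is 53.4% more. Chromosome 22 held 50.4% more, chromosome 16 34.2%, chromosome 17 33.6% and chromosome 20 28.1%. At the other end were chromosome 4 at -28.9%, chromosome 13 at -21.4% and chromosome X at -20.0%. Chromosome 12 was the exception, at -0.298% (exact permutation p = 0.171).

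**Figure D4:**
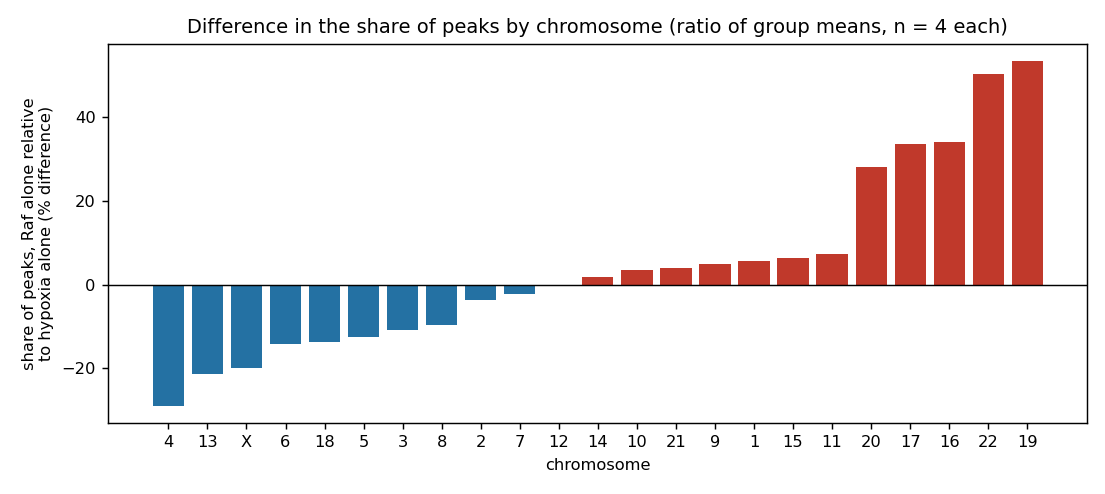
Difference in the share of peaks on each chromosome (y axis, percent, Raf alone relative to hypoxia alone, from the group means of 4 libraries each), ordered along the x axis. Red and blue bars are the 22 chromosomes that passed the test; chromosomes 19 and 22 stand at 53.4% and 50.4% and chromosome 4 at -28.9%.

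The lists themselves differed in size. Raf alone gave 200327, 202898, 190378 and 204638 distinct peaks and hypoxia alone 174991, 173672, 169287 and 172800, without overlap (means 199560 ± 6372 and 172688 ± 2439, SD; exact permutation p = 0.0286, adjusted 0.0367). At matched depth the difference was 16256 in place of 26873 peaks, and among peaks enriched 5-fold or more it was -2709 (exact permutation p = 0.143). The peaks covered 90.2 ± 3.20 Mb with Raf alone and 80.6 ± 2.06 Mb with hypoxia alone (SD, n = 4; exact permutation p = 0.0286). Leaving out any 1 of the 4 hypoxia-alone libraries gave an exact permutation p of 0.0571 for that difference. The median peak was 362 ± 3.65 bases long with Raf alone and 378.5 ± 6.03 with hypoxia alone (SD, n = 4; exact permutation p = 0.0286), and -7.5 bases parted the groups at matched depth (exact permutation p = 0.171). The Jaccard index, the base pairs covered in both lists over those covered in either, averaged 0.765 between libraries of one group and 0.424 between the stresses (exact permutation p = 0.0286), with a difference of 0.341 also at matched depth. Between each stress and the untreated libraries it averaged 0.412 for Raf alone and 0.654 for hypoxia alone. The untreated background, 3.01 to 3.50, is nearer to that of hypoxia alone (4.61 to 5.02) than of Raf alone (6.09 to 7.10). The untreated lists were not thinned, and the part of depth in these averages was not tested.

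**Figure D5:**
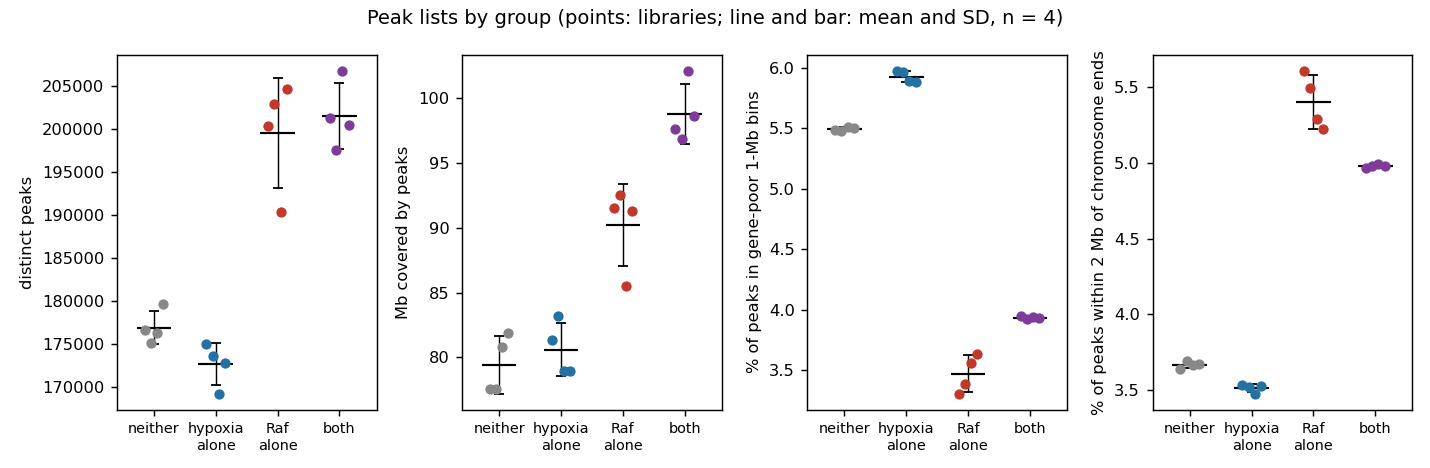
Distinct peaks, Mb covered, percent of peaks in gene-poor bins and percent within 2 Mb of chromosome ends (y axes) for the 4 groups (x axis), with 1 point per library and the mean ± SD of 4. The Raf-alone libraries lie apart from the hypoxia-alone libraries in each panel, at 3.31 to 3.64% against 5.88 to 5.98% in gene-poor bins.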

How the data were processed

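ATAC-seq peak lists of 16 IMR90 libraries were used, 1 narrowPeak list per library as the authors deposited them, with replicates not pooled. The submitters' processing notes name MACS2 for peaks and hg38 as the assembly, besides Bowtie2, bedtools, cutadapt, deepTools, FastQC, Picard and SAMtools, without versions or settings. By its deposited columns a line has a score, which equals 10 times the deposited -log10 q cut to a whole number for over 99.5% of lines, the authors' fold enrichment as a ratio at the summit, and the -log10 p and -log10 q values of their peak caller. The lowest deposited -log10 q was 1.30. These values depend on depth and were used for ranking, filtering and describing peaks inside each list, and to recover the pileup and background of each list from a fold of (pileup + 1) over (background + 1) and a Poisson p.

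Lines with the same interval were merged, and chromosomes 1 to 22 and X kept. Lists of matched depth were made by binomial thinning to a background of 4.61 with a -log10 p of at least 5. Gene models and promoter sequences came from RefSeq GRCh38.p14, the assembly hg38 names; 15812 of 19974 protein-coding genes had a start in the promoter table, which holds none for chromosome 8. The ends of a chromosome were those of its outermost peaks. Library values were tested by exact permutation (two-sided, 4 against 4, smallest p 0.0286) with Benjamini-Hochberg adjustment over 9 values or 23 chromosomes. Loci averaging 3 peaks or more and bins averaging 10 or more were fitted in limma 3.58.1 (R 4.3.3) over all 16 libraries with 4 group means, a pseudocount of 1 and an adjusted p below 0.05, after a check on simulated data. Python 3.11.15, numpy 2.4.6, pandas 2.3.3 and scipy 1.17.1 were used otherwise.

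The groups compared and the gene lists were chosen with earlier results of these data known. Loci named were the 6 largest differences each way among called loci without overlap, the 2 largest called members of each list that is not a marker list, and 14 fixed genes. Regions, starts and bins named were the 4, 6 and 3 leading ones on each side, by the mean rank of the authors' p (bins by difference). Other list members and the starts of TRIM63, CCL20, PAEP, ADAMTS19, FOXP2 and CDKN1A were chosen after their values were seen. Motifs around peak summits were not analysed here. Alternatives were peaks enriched 5-fold or more, a -log10 q of at least 5, equal list lengths, matched depth, other distances, windows, scaling, filters and pseudocounts, a replicate block, and leaving out each library.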

Additional observations from a re-analysis of the deposited data

Results flagged for a closer look

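In groups of 4 libraries, a library was marked when its gap to the nearest of the others passed Dixon's 95% limit for its share of the range of the group. Chance marks about 1 in 20 groups. Of 116 groups looked at 31 were marked, many of them because the values are small whole numbers of peaks: in 19 the library was 1 peak away from its nearest neighbour, and in 4 the peak numbers were equal and only the scaling parted them.

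The wider gaps were these. With Raf alone, replicate 3 had 5.96% of its peaks over gene starts, and its scaled peaks were 34.1 in ZEB1, 15 peaks below the next library, and 4.74 in SULT1A2, 2 peaks below. Replicate 2 had 11.5 in DUSP4, 4 peaks above the next, and replicate 4 had 11.5 in IL1A, 2 above. With hypoxia alone, replicate 1 had 57.7 in SYNE1, 5 peaks below the next, replicate 2 had 10.1 in HHLA2, 3 below, and replicate 3 had 10.3 in POLA1, 4 below.

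The rest were 1 peak or less apart. With Raf alone, replicate 3 stood apart in scaled peaks at CENPE (1.90), EGLN3 (0.949), COL11A1 (0.949), SMAD9 (1.90), TOR1A (7.59), H3C12 (3.79), H2AC17 (4.74) and IFITM3 (6.64), and replicate 4 at THEMIS (0.885). With hypoxia alone, replicate 1 stood apart at DUSP4 (3.33) and TERT (0). Replicate 2 did so at MUC6 (1.12), NOTCH1 (7.83), TP53INP1 (1.12) and EGLN3 (7.83). Replicate 3 did so at BMP2 (1.14), JDP2 (7.99), MAP3K7 (7.99) and IFI44L (6.85), and replicate 4 at CTSO (4.48), IFITM3 (4.48), CDKN1A (6.72) and VEGFA (7.84). Of the Raf-alone libraries replicate 3 has the lowest background, 6.09, and the fewest peaks, and the part of that in its values was not tested.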

How the results depend on the processing

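Results that kept direction and call under every alternative run were the shares of peaks in gene-poor bins and near chromosome ends and the similarity of libraries. The balance of the 1-Mb bins turned without scaling, to 1097 higher with Raf alone and 1009 with hypoxia alone in place of 843 and 1335. Among peaks enriched 5-fold or more the difference was -2709 distinct peaks, -0.821 Mb covered, 6.0 bases of median length, 0.428 points near gene ends, -0.00897 points over gene starts and -2.64 points inside gene bodies. There 23684 regions were Raf-only, beside 26256 hypoxia-only, and 3881 loci higher with Raf. With equal list lengths, which give no value for the number of peaks, it was 2.15 Mb, 10.5 bases, 0.48 points near gene ends and -1.48 points inside gene bodies. At matched depth it was -7.5 bases, 0.123 points near gene ends and -0.887 points inside gene bodies, and with a -log10 q of at least 5 it was -0.874 points inside gene bodies. Within 2 kb it was 0.79 points near gene ends. With 3 or more of 4 against 1 or fewer of 4 as the call, 431 and 342 gene starts were called. Without scaling 9106 and 2375 loci were called, and in gene bodies alone, where 9188 loci were tested, 6375 loci, 3525 of them higher with Raf. Leaving out each library gave 8.86 to 11.2 Mb, and 9.07 to 10.5 Mb with an exact permutation p of 0.0571 when the library was one of hypoxia alone. The cause of these shifts was not tested, other than fewer loci tested in gene bodies alone. The planned motif values were not run.

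Of the named loci, the direction turned for DUSP6 (0.39), CXCR4 (0.27), VEGFA (-0.03) and FOSL1 (0.17) by kb covered, for NOTCH1 (-0.06), H2AC17 (0.01), IL1A (-0.51), CDKN2A (-0.07), FOSL1 (0.01) and HMGA2 (-1.28) among peaks enriched 5-fold or more, and for CXCL8 (-0.27), FOSL1 (0.25) and HMGA2 (-0.23) in loci widened to 50 kb. Without scaling it turned for CDKN1A (0.19), FOSL1 (0.22) and CA9 (0.17), with equal lengths for CDKN1A (0.21), FOSL1 (0.14) and HMGA2 (-0.14), at matched depth for CDKN1A (0.09), FOSL1 (0.02) and HMGA2 (-0.04), and with a -log10 q of at least 5 for CDKN1A (0.04) and FOSL1 (0.05). CDKN1A was at 0.35 in the gene body alone. With a library left out it was at -0.18 to 0.01, the latter without Raf-alone replicate 4, and FOSL1 at -0.12 to 0.06, the latter without hypoxia-alone replicate 2. The CXCL8 call ended with equal lengths (0.18) and at matched depth (0.22). Loci that did not pass the test were called in some alternatives. IL6 was called in 5 alternatives, at 0.33 to 0.48. FOSL1 was called by kb covered and in loci widened to 50 kb, at the values above. In the wider loci CXCR4 (-0.62), CA9 (-0.28) and HMGA2 (-0.23) were called. HMGA2 was also called among peaks enriched 5-fold or more (-1.28), without scaling (0.37) and by kb covered (0.19). CDKN1A was called by kb covered (-0.2) and in the gene body alone (0.35).

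Whether same-numbered libraries share a culture or batch is not stated, and their deviations cannot settle it. These deviations correlated at -0.01 to 0.02 over loci and -0.0848 to -0.0143 over bins. Of the Raf-alone libraries 2 of 4 matched best with their own number over loci and 0 of 4 over bins. With a replicate block 5837 loci were higher with Raf alone and 4162 with hypoxia alone, and 840 and 1335 bins. Depth limits what absence from a list shows, and strict one-group regions lie near the threshold.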
